A study of Mus musculus with 5 samples.

Results

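The epithelial keratins described here are Krt7, Krt8, Krt14, Krt15, Krt17, Krt18, Krt19, Krt20, Krt23 and Krt80. They were chosen by name, each gene being taken from the array probe sets that the platform annotation pairs with that symbol alone. All 10 had exactly 1 such probe set, and all 10 passed the filter on dim signal, so they are 10 of 14979 genes tested. The arrays come from MLE-15 cells, a mouse lung epithelial line grown from tumours of mice that carried the SV40 large tumor antigen under the human surfactant protein C promoter, so every sample carries that antigen. Cells were transduced with a lentivirus holding a GFP reporter and 1 shRNA against Grhl2, or the same vector with a non-targeting shRNA, and both groups were selected with puromycin. There were 3 Grhl2 shRNA arrays and 2 non-silencing control arrays, each an independent transduction by the labels. The study asked which genes depend on GRHL2, a Grainyhead-like transcription factor, in lung epithelium.

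Keratins are the intermediate filament proteins of epithelia. A filament forms only when an acidic type I keratin pairs with a basic type II keratin, and the pair used differs between epithelia. Krt8 with Krt18 is the pair of simple epithelia such as the alveolar lining, Krt7 and Krt19 accompany it in many ducts and airways, and Krt14, Krt15 and Krt17 belong to basal or wounded stratified layers. The filaments are tied to desmosomes by plakins, which lets an epithelial sheet bear strain.

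In the Grhl2 shRNA arrays, 1 of these keratins was lower than in the controls beyond the test threshold. Krt80, a type II keratin described near desmosomes, fell by 0.32 on the log2 scale to 80.1% of its control signal. The other 9 did not pass, and Krt7, Krt8, Krt18 and Krt19, the simple epithelial keratins, had differences between −0.094 and −0.015. Tests were made with limma over all 14979 genes with Benjamini-Hochberg adjustment and a threshold of 0.05, under which 6.38% of all genes were called, 2.86% higher and 3.52% lower in the knockdown. Among the members 0 were higher and 1 was lower, a share that rests on 1 gene. The Krt80 call did not hold in every alternative fit, and Grhl2 itself did not pass in the main fit (limma adjusted p = 0.082). In bulk RNA, fewer cells that express a gene and less RNA per cell cannot be told apart.

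On these arrays the label of an epithelial line was met by Cdh1, Epcam and Nkx2-1, the genes of E-cadherin, an epithelial adhesion protein and a lung transcription factor, with 5-array mean log2 signals above the 50th percentile of all single-symbol probe sets (6.10). Of 12 lung epithelial genes, 3 lay below it, namely Cldn18, Lamp3 and Slc34a2. Genes used as markers of other cells also lay above it, among them the mesenchymal filament gene Vim (11.08) and the mesothelial marker Msln (9.98). Of 8 mesothelial markers 6 lay below it, as did 9 of 12 mesenchymal, endothelial and immune markers. The median signal of an array lay between 5.29 and 5.32.

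Upstream sequences of 3 bright members are shown because Krt8 and Krt18 encode the partner chains of 1 filament, and because the groups did not overlap in Krt7, a bright type II member like Krt8. Krt80 had no window in the table used. RefSeq windows for GRCm38.p6 were matched for 6 of the 10 members (Krt7, Krt8, Krt14, Krt18, Krt20 and Krt23), and the 250 bases before each start are given 5′ to 3′. Capitals mark the letters GGGCGG or their reverse complement CCGCCC, the core of Sp1 sites.
Krt7 (chr15:101412153-101412402, plus strand): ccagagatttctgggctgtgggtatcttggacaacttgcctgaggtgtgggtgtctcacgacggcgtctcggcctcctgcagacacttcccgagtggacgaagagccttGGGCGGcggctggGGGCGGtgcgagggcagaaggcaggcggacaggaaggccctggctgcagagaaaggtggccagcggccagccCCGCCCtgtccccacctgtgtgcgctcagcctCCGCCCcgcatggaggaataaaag
Krt8 (chr15:102004343-102004592, minus strand): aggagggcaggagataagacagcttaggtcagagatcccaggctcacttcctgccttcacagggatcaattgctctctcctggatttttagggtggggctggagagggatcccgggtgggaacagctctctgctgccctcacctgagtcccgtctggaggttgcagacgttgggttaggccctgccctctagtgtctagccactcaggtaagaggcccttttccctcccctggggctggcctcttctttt
Krt18 (chr15:102027966-102028215, plus strand): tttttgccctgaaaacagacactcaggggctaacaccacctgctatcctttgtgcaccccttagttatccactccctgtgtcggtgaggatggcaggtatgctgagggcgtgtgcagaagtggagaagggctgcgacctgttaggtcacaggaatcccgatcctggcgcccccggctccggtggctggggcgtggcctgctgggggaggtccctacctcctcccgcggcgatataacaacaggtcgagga
The Grainyhead consensus AACCGGTT was searched in these windows on both strands, together with the looser AACNGGTT and its reverse complement AACCNGTT, which include the consensus. The consensus occurred in 0.116% and the looser form in 1.79% of 32851 RefSeq windows of the same length, and in 0 of the 6 member windows. The Sp1 core occurred in 32.7% of all windows and, among the 6, in Krt7, where it was found at 4 places. The AP-1 letters TGANTCA, their own reverse complement, occurred in 6.75% of all windows and in none of the 6, and the letters TATAAA (reverse complement TTTATA) in 12.4% and, among the 6, in Krt20. These matches describe letters in a window and not binding.

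Krt80 was the member with the clearest separation of the groups. Its probe set (10432682) read 7.47, 7.36 and 7.31 in log2 units after the knockdown, against 7.74 and 7.66 in the controls. Every knockdown value lay below both control values, with a gap of 0.19. Group means were 7.70 ± 0.055 (SD, n = 2) for the control and 7.38 ± 0.080 (SD, n = 3) for the knockdown. This is a log2 fold change of −0.32 (SE 0.058, limma adjusted p = 0.028), and the 95% confidence interval of the remaining signal ran from 72.8 to 88.1%. The exact two-sided permutation p over the 10 splits of the arrays was 0.1, the smallest this design allows. In size the difference ranked 436 among the 14979 genes tested. The call ended when knockdown replicate 2 (adjusted p = 0.088), knockdown replicate 3 (0.064), control replicate 1 (0.149) or control replicate 2 (0.114) was left out, and with no filter on dim probe sets (0.057), while the log2 fold change stayed between −0.36 and −0.28 under all 13 alternative fits.

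Grhl2 itself (10423770) read 7.43, 7.43 and 7.60 in log2 units after the knockdown, against 7.77 and 7.68 in the controls. Its own log2 fold change of −0.24 did not pass (limma adjusted p = 0.082), and the remaining signal was 85.0% of the control. Inside the knockdown group the order of the arrays was not shared: knockdown replicate 3 had the highest Grhl2 value and the lowest Krt80 value. With 3 arrays this is a description only.

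The type II member Krt8 encodes the partner of Krt18 in simple epithelia. Its probe set (10432918) read 11.90, 11.98 and 11.92 in log2 units after the knockdown, against 12.07 and 11.98 in the controls. The groups were barely apart, since knockdown replicate 2 stood at 11.984 and control replicate 2 at 11.985. The log2 fold change was −0.094 (SE 0.049, limma adjusted p = 0.31), with a 95% confidence interval of −0.21 to 0.022. As a share of the control signal, that interval runs from 86.5 to 101.5%.

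Krt7 is a type II keratin of glandular, ductal and lung epithelium. Its probe set (10427052) gave 10.44, 10.48 and 10.51 with the knockdown and 10.58 and 10.52 without it. Here too every knockdown value was below both control values, with a gap of 0.011. The log2 fold change was −0.071 (SE 0.044, limma adjusted p = 0.39), with a 95% confidence interval of −0.18 to 0.034. The groups thus stayed apart in each of the 3 type II members, by only 0.0012 in Krt8, and overlapped in each of the 7 type I members. These 3 of 10 members stand beside 41.5% of the whole tested set with separate groups, and 20.5% with every knockdown value below control. Type cannot be told from brightness here, since all 3 type II members lay above the 50th percentile and the 5 members below it were all type I. Above that percentile the groups were apart in 3 of 5 members, and below it in 0 of 5.

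The type I members of simple epithelia had small differences. Krt18 (10427075), the partner of Krt8, had log2 values of 12.08, 12.15 and 12.15 with the knockdown and 12.13 and 12.15 without it. The groups overlapped, and the log2 fold change was −0.015 (SE 0.043, limma adjusted p = 0.88), or −0.059 with quantile normalization repeated (limma adjusted p = 0.46). Krt19 (10391036), the shortest keratin and a marker of ducts and airways, had 11.06, 11.06 and 11.01 with the knockdown and 10.99 and 11.15 without it. All 3 knockdown values fell between the 2 control values, and the log2 fold change was −0.024 (SE 0.057, limma adjusted p = 0.85). The 95% confidence intervals were −0.12 to 0.087 for Krt18 and −0.16 to 0.11 for Krt19.

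**Figure D1:**
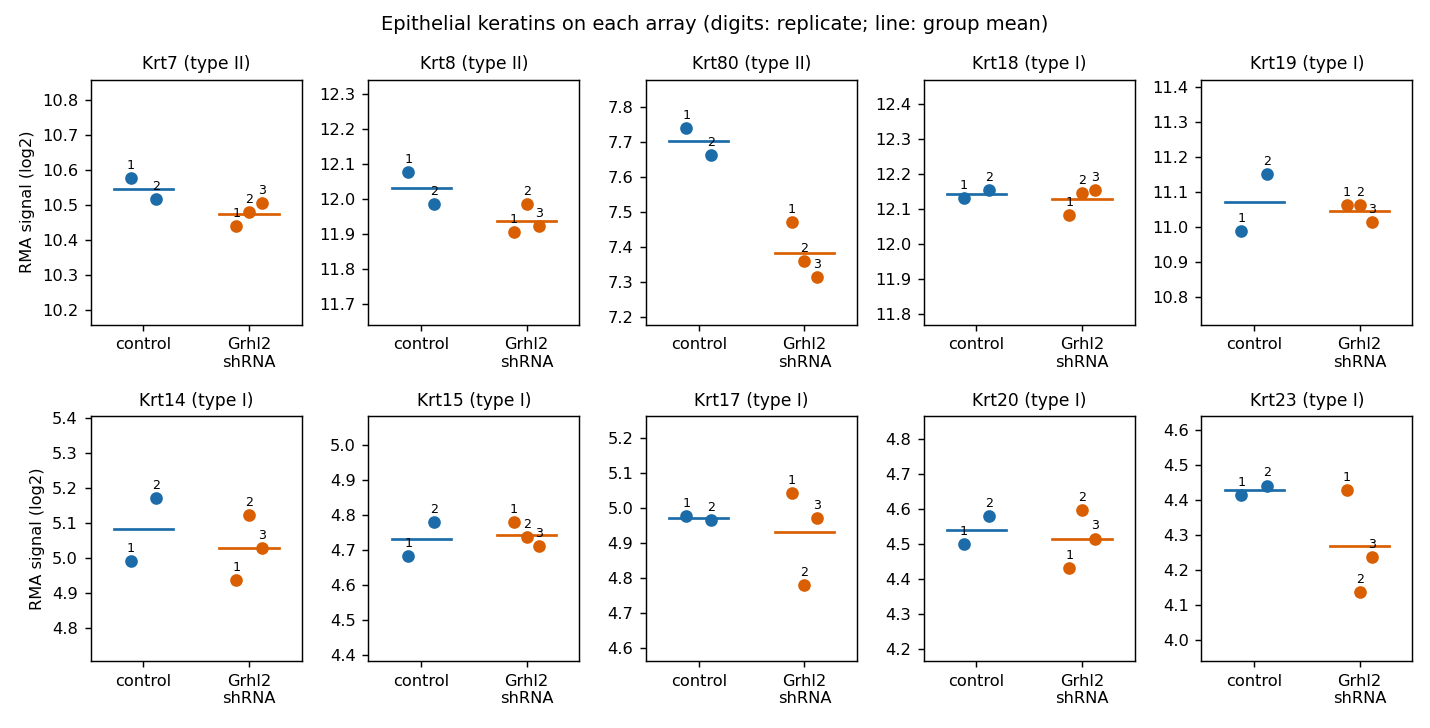
Log2 RMA signal of the 10 keratins on each array, 1 panel per gene, with control arrays in blue, Grhl2 shRNA arrays in orange, replicate numbers as digits and group means as lines. Every panel spans the same height in log2 units but its own level, and Krt80 is the panel in which the groups stand farthest apart (means 7.70 and 7.38).

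The balance of partner chains was compared as the difference of 2 log2 signals on the same array, whose offset depends on the probe sets and carries no meaning of its own. Krt8 minus Krt18 was −0.18, −0.16 and −0.23 with the knockdown and −0.055 and −0.17 without it. The groups overlapped and their means differed by −0.078, with an exact permutation p, two-sided, of 0.2 (0.4 after Benjamini-Hochberg adjustment over the 2 comparisons). Krt7 minus Krt19 was −0.62, −0.58 and −0.51 with the knockdown and −0.41 and −0.63 without it, a difference of means of −0.047 with an exact permutation p of 0.7 (0.7 adjusted). Both values rested on which control was used: leaving out control replicate 1 gave −0.021 for Krt8 minus Krt18 and 0.064 for Krt7 minus Krt19, and leaving out control replicate 2 gave −0.14 and −0.16. The smallest p that this permutation can give is 0.1, so no change of balance of any size could have passed 0.05, and the values are a description.

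The remaining 5 members were dim. Krt14, Krt15, Krt17, Krt20 and Krt23 had 5-array means from 4.33 to 5.05, between the 25th percentile of single-symbol probe sets (4.22) and the 50th (6.10), and no detection calls were used here, so whether these genes were expressed cannot be told. Krt14 (10391052), the type I keratin of basal cells, had log2 values of 4.94, 5.12 and 5.03 with the knockdown and 4.99 and 5.17 without it. Krt15 (10391025), another basal type I keratin, had 4.78, 4.74 and 4.71 with the knockdown and 4.68 and 4.78 without it. In both genes the groups overlapped, with log2 fold changes of −0.053 (limma adjusted p = 0.73) and 0.011 (limma adjusted p = 0.93).

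Krt17 (10391066), a type I keratin induced in wounded epithelium, had log2 values of 5.04, 4.78 and 4.97 with the knockdown and 4.98 and 4.96 without it. Knockdown replicate 2 stood below the other 4 arrays, and the log2 fold change was −0.039 (limma adjusted p = 0.81). Krt20 (10390850), a type I keratin of intestinal and urothelial surfaces, had 4.43, 4.60 and 4.52 with the knockdown and 4.50 and 4.58 without it, a log2 fold change of −0.026 (limma adjusted p = 0.84). Its knockdown values reached both below and above the control values.

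Krt23 (10390860), a type I keratin, had the second largest difference among the members. Its log2 values were 4.43, 4.14 and 4.24 with the knockdown and 4.41 and 4.44 without it. Knockdown replicate 1 lay between the 2 controls and the other knockdown arrays below them. The log2 fold change was −0.16 (SE 0.082, limma adjusted p = 0.30) with a 95% confidence interval of −0.35 to 0.033, and the residual spread between replicates, 0.12, was larger than that of 91.7% of genes tested.

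**Figure D2:**
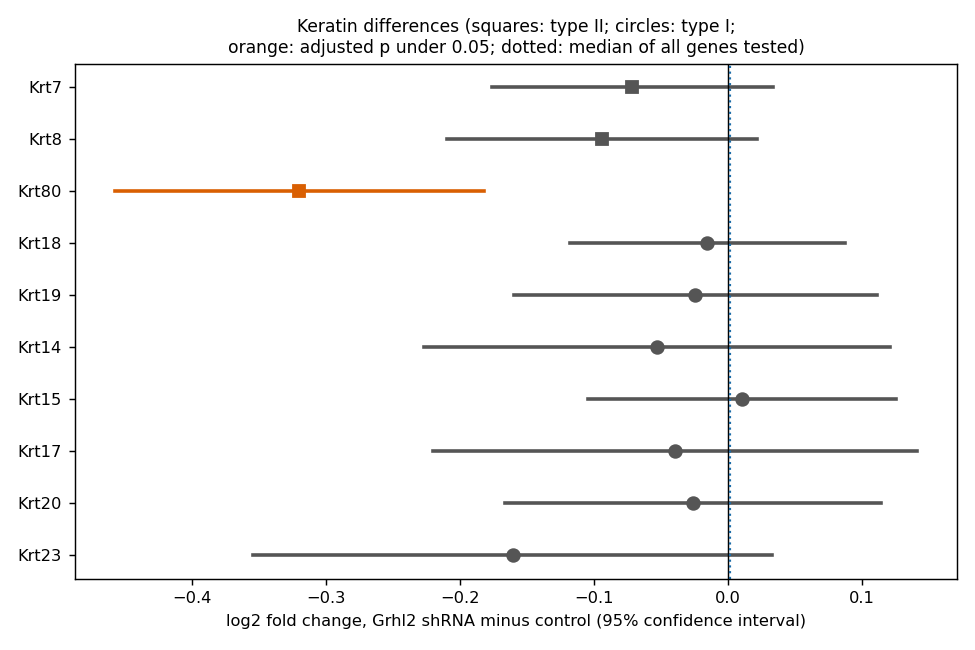
Log2 fold change (Grhl2 shRNA minus control) of each keratin with its 95% confidence interval from limma, squares for type II and circles for type I, with the median of all genes tested (0.002) as a dotted line. The Krt80 interval (−0.46 to −0.18) is the only one of the 10 that leaves out 0.

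Across the 10 members, 9 had a log2 fold change below 0 and 1, Krt15, above it, where 49.1% of all genes tested lay below 0. The median was −0.046, beside 0.002 over all genes tested. The 5 bright members had a median of −0.071 and the 5 dim ones −0.039. The replicate spread did not follow brightness alone: the residual SD was 0.033 for Krt18, 0.036 for Krt7, 0.050 for Krt8, 0.071 for Krt19 and 0.073 for Krt80, and among the dim members it ran from 0.049 for Krt15 to 0.12 for Krt23. Over all genes tested the median residual SD was 0.055.

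The wider family was read by symbol. In all, 52 keratin genes had a single-symbol probe set and 42 passed the filter, 22 of type I and 20 of type II. Krt80 was the only one of the 42 past the threshold in limma, lower in the knockdown, and 41 did not pass. Of the 42, 8 had an unadjusted p under 0.05, where the share over all genes was 23.1%. The groups did not overlap in 13, with 10 lower and 3 higher in the knockdown, a share below the 41.5% of all genes. The median log2 fold change was −0.039. After Krt80 the largest value was that of Krt6a (10432780), a type II keratin of wounded and activated epithelium, at −0.26 (SE 0.14, limma adjusted p = 0.31). Krt6a had log2 values of 5.97, 5.78 and 6.01 with the knockdown and 6.42 and 5.94 without it, so control replicate 1 stood apart and the groups overlapped. The log2 fold change of Krt6a was −0.023 with that array left out and −0.50 with control replicate 2 left out (limma adjusted p = 0.94 and 0.10).

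Keratin genes lie in 2 clusters, type I on chromosome 11 and type II on chromosome 15, with the type I gene Krt18 next to Krt8 at the end of the second. In the RefSeq gene table of GRCm38.p6, Krt80 and Krt7 are the first 2 keratins of the chromosome 15 cluster, and Krt4, Krt79, Krt78 and Krt8 follow one another before Krt18 at its other end. In each of these 6 genes every knockdown value lay below both control values, as it did in 7 of the 20 type II keratins tested and in 20.5% of all genes tested. Inside the cluster it also held for the dim Krt2 (log2 fold change −0.15, limma adjusted p = 0.16), while in Krt77 every knockdown value lay above (0.12, limma adjusted p = 0.17). The genes of this paragraph that are not members were chosen after their values were seen, so their share in this pattern follows from the choice. The gap between the groups was only 0.0012 in Krt8 and 0.0026 in Krt79. Krt4 (10432886), a type II keratin of the oesophageal lining, had log2 values of 9.24, 9.10 and 9.13 with the knockdown and 9.33 and 9.38 without it, a log2 fold change of −0.20 (limma adjusted p = 0.082). Krt79 (10432897) and Krt78 (10432907) had log2 fold changes of −0.15 (limma adjusted p = 0.22) and −0.16 (limma adjusted p = 0.20). None of these non-members passed.

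The type II gene next to Krt7 went the other way. Krt87 (10432695), a hair keratin chosen after its value was seen, had 6.21, 6.25 and 6.28 with the knockdown and 6.10 and 6.09 without it. Its log2 fold change was 0.16 (SE 0.042, limma adjusted p = 0.079). When only genes above the 50th percentile were tested, 17.2% of the genes tested passed. Among the 9 keratins then tested, Krt4 and Krt87 passed beside Krt80, with limma adjusted p-values of 0.031 and 0.029. On chromosome 11, the groups did not overlap in Krt27, Krt31 and Krt36, which were lower, and in Krt34, which was higher, and none of the 4 passed (limma adjusted p = 0.11 to 0.34).

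**Figure D3:**
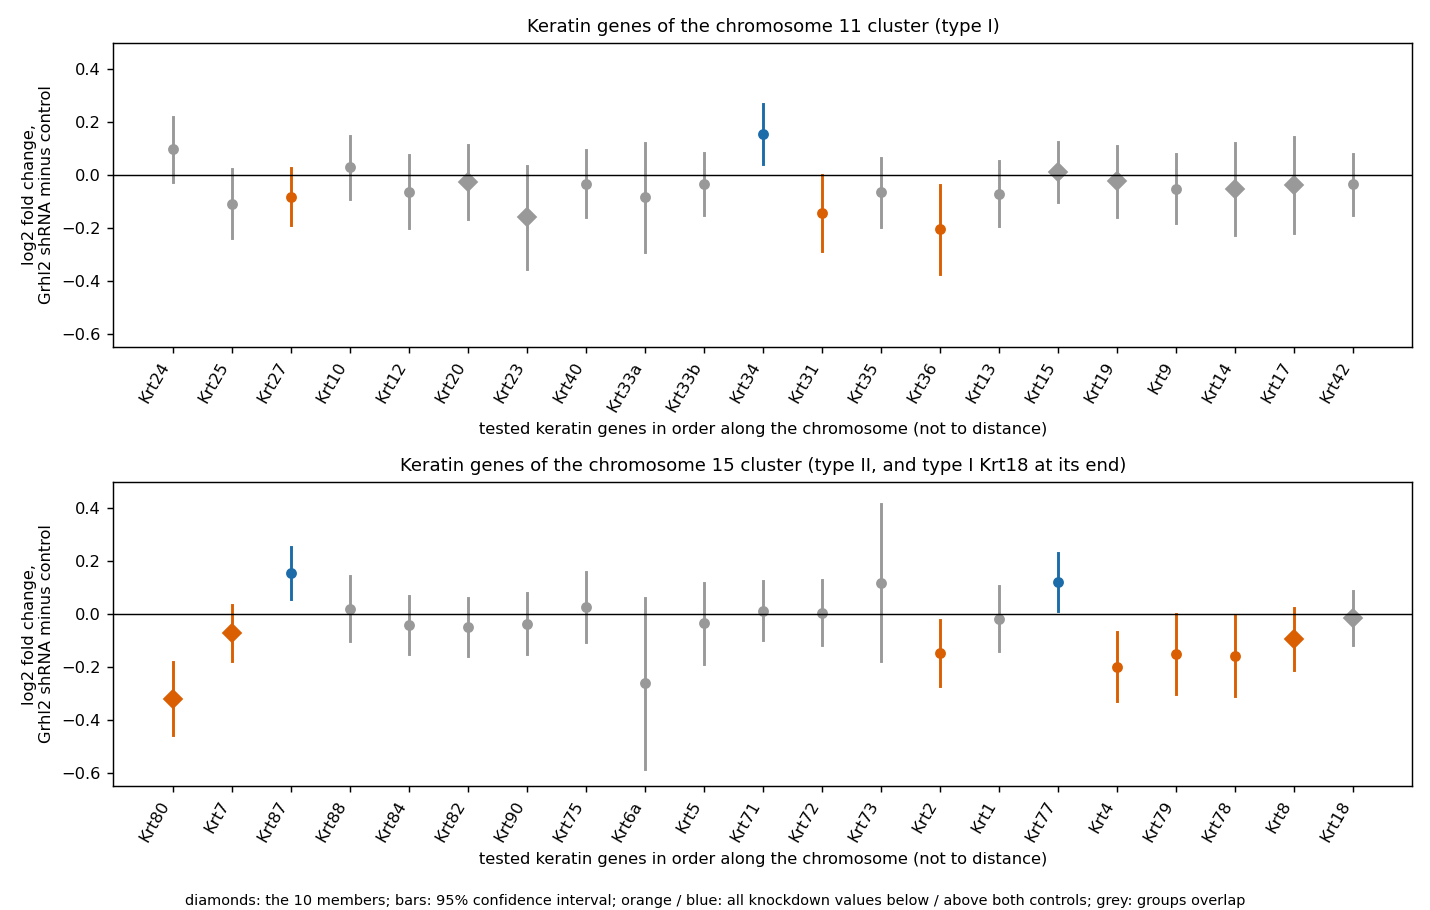
Log2 fold changes with 95% confidence intervals of the 42 keratin genes tested, in order along chromosome 11 (upper) and chromosome 15 (lower), with the 10 members as diamonds. Orange marks genes with all knockdown values below both controls and blue all above, and on chromosome 15 orange marks Krt80 and Krt7 at one end, Krt2 inside the cluster, and Krt4, Krt79, Krt78 and Krt8 towards the other end, with Krt87 and Krt77 in blue.

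Genes that anchor keratin filaments were mostly lower without passing the test. Of 15 anchor and plakin genes, 0 passed in limma, and the median log2 fold change was −0.12. An unadjusted p under 0.05 was found in 10, beside 23.1% of all genes. A log2 fold change below 0 was found in 11, beside 49.1%. The groups did not overlap in 13, beside 41.5% of all genes, and all knockdown values lay below control in 11, beside 20.5%. The list was chosen with earlier results of these data known, so these counts are a description. Dsp (10404649), the gene of the plakin desmoplakin that ties keratins to desmosomes, had log2 values of 8.91, 9.08 and 9.11 with the knockdown and 9.32 and 9.27 without it. Its log2 fold change was −0.26 (SE 0.065, limma adjusted p = 0.063), and that of Dst (10345241), which encodes a plakin of hemidesmosomes, −0.24 (SE 0.072, limma adjusted p = 0.105). The count of anchor genes called depended on the fit: it was 7 of 13 with the filter at the 50th percentile, where 17.2% of all genes were called, 8 of 15 with a trended and robust variance prior, where 13.6% were, 1 of 15 with array weights and 0 in the other 10 alternative fits.

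Among 14 other intermediate filament genes tested, 1 fell and 13 did not pass, where 6.38% of all genes were called. Synm (10564482), which encodes the filament linker synemin, fell by 0.36 (SE 0.075, limma adjusted p = 0.039). Vim (10469322), the mesenchymal filament gene vimentin, had a log2 fold change of −0.23 (SE 0.077, limma adjusted p = 0.13). The median of the list was −0.039, the same to this precision as that of all keratins tested.

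Of 21 genes listed for keratin filament partners and turnover, 3 fell, 0 rose and 18 did not pass, with a median of 0.005. Over all genes 6.38% were called. The list was chosen with earlier results of these data known, so the count is a description. Pof1b (10606495), an actin-binding protein of epithelial junctions, fell by 0.42 (SE 0.055, limma adjusted p = 0.012). Fam83h (10429691), which brings casein kinase 1 to keratin filaments, fell by 0.21 (SE 0.040, limma adjusted p = 0.030). The third, Aldoc (10379153), encodes the glycolytic enzyme aldolase C, and a part of it in keratin filaments was not tested. Aldoc fell by 0.51 (SE 0.085, limma adjusted p = 0.022).

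Of 26 genes for transcription factors linked to keratin genes in other epithelia, 3 rose, 2 fell and 21 did not pass, with a median of −0.032. Over all genes 6.38% were called. An unadjusted p under 0.05 was found in 13 of the 26 in limma, beside 23.1% of all genes. The groups did not overlap in 16, beside 41.5%. This list too was chosen with earlier results of these data known, so these counts are a description. Fosl1 (10460585) and Fosl2 (10520862), both subunits of AP-1, went opposite ways, by 0.35 (SE 0.043, limma adjusted p = 0.0091) and −0.25 (SE 0.050, limma adjusted p = 0.037). Ehf (10485445), an epithelial ETS factor, fell by 0.73 (SE 0.17, limma adjusted p = 0.049). Its residual spread between replicates, 0.27, was larger than that of 99.8% of genes tested. Cdx2 (10535771), an intestinal homeobox factor, and Cebpb (10478890), a C/EBP factor, rose by 0.28 and 0.21 (limma adjusted p = 0.016 and 0.044). Of the 13 called genes that are named here from the lists and are not keratins, 0 stayed past the threshold when either control array was left out, and 9, 4 and 8 did so without knockdown replicates 1, 2 and 3. With no filter 7 stayed, with the replicate number as a block 2, and with a trended and robust prior 12, all but Ehf (limma adjusted p = 0.071). All 13 kept their sign in each of these fits.

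**Figure D4:**
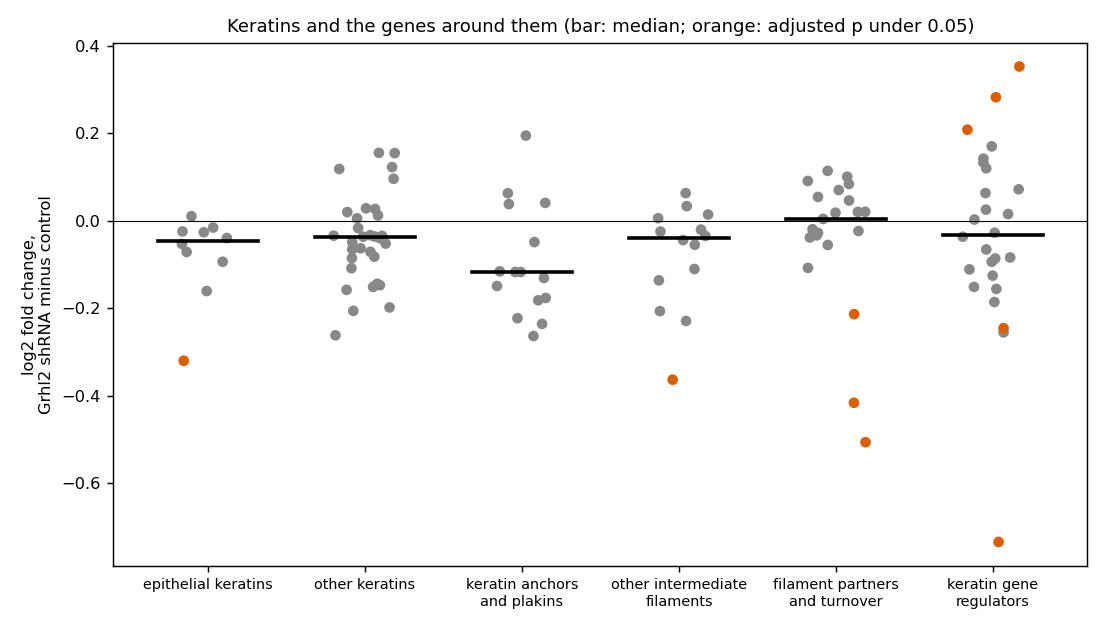
Log2 fold changes (Grhl2 shRNA minus control) of the 10 keratins, the 32 other keratins tested and 4 lists of related genes, 1 point per gene, medians as bars and genes past the threshold in orange. The epithelial keratins lie close together except Krt80 (−0.32), and the anchor and plakin list has the lowest median (−0.12) of the 6 columns.

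Markers of other cell types that use these keratins were read beside them. Of 10 basal cell markers, 8 lay below the 50th percentile, among them Trp63, the master factor of basal cells, Krt5, Krt14 and Krt15, and Snai2 lay below the 25th. The log2 of the list's summed linear signal was 10.96 to 11.01 with the knockdown and 10.80 to 10.87 without it, and Itga6 alone made up 72.7% of that sum. Of 9 basal markers tested, 5 had a log2 fold change below 0 and 4 above, with a median of −0.001. None passed in limma. An unadjusted p under 0.05 was found in 2 of the 9, a share near the 23.1% of all genes. These were Itga6 at 0.20 (limma adjusted p = 0.084) and Ngfr at 0.17 (limma adjusted p = 0.085). Mesothelial cells also use Krt7, Krt8, Krt18 and Krt19. On the same scale, log2 of the summed linear signal, 8 mesothelial markers gave 10.59 to 10.65 with the knockdown and 10.78 to 10.80 without it, 6 of them lay below the 50th percentile, and Gpm6a, Lrrn4 and Muc16 lay below the 25th. The brightest were Msln, which made up 61.2% of the sum (log2 fold change −0.091, limma adjusted p = 0.26) and Upk1b (−0.37, limma adjusted p = 0.070). Of 5 tested 0 passed, and 1 had an unadjusted p under 0.05 in limma, again near the 23.1% of all genes. All 5 had a log2 fold change below 0, beside 49.1% of all genes. In 3 of the 5 all knockdown values lay below control, beside 20.5% of all genes.

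For 12 mesenchymal, endothelial and immune markers the log2 of the summed linear signal was 9.27 to 9.45 with the knockdown and 9.17 to 9.19 without it, with Dcn making up 34.6% of the sum. Of these 12, 9 lay below the 50th percentile and Kdr and Ptprc below the 25th. Of 10 tested, 8 had a log2 fold change below 0, beside 49.1% of all genes. None of these 8 passed the threshold, and the median of the list was −0.065. The other 2 passed, where 6.38% of all genes did. Dcn, the matrix proteoglycan decorin, rose by 0.70 (limma adjusted p = 0.036) and Tyrobp, a myeloid adaptor at a dim mean signal of 4.49, by 0.28 (limma adjusted p = 0.020). For the lung epithelial list the log2 of the summed linear signal was 13.30 to 13.37 with the knockdown and 13.32 to 13.36 without it. In that list 10 genes were tested, of which 1 rose, 1 fell and 8 did not pass, again beside 6.38% of all genes called. Napsa, a surfactant-processing protease, rose by 0.36 and Sftpd, a surfactant protein gene, fell by 0.33 (limma adjusted p = 0.010 and 0.021). The part of these markers in the keratin values was not tested, and probe sequences were not used here, so whether a keratin probe set also reads a close paralog was not tested either.

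The genes whose pattern over the 5 arrays was most like that of Krt80 were found by the Euclidean distance between mean-centred log2 values. The nearest was Sh3tc1 (distance 0.034), followed by Smim38 (0.055), Slc44a4 (0.057), Klf7 (0.060) and Fah (0.070). Sh3tc1 (10529497) had log2 values of 6.49, 6.39 and 6.30 with the knockdown and 6.75 and 6.69 without it, so it shared with Krt80 the order of the knockdown arrays as well as that of the controls. The 5 genes had log2 fold changes from −0.33 to −0.29, and Klf7, a Krüppel-like factor, was the one of them that did not pass (limma adjusted p = 0.055). The choice by likeness fixes that direction.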

How the data were processed

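Total RNA of 5 MLE-15 cultures was measured on 1-colour whole-transcript arrays. The authors deposited log2 values. Per the submitters' processing notes, Affymetrix Expression Console computed them by RMA (background correction, quantile normalization, probe set summary). No version or filter is stated in the labels, and the log base was taken from RMA and the range of values. Of 34760 probe sets, 21640 have 1 symbol in the platform annotation, and 21553 of these matched RefSeq (GRCm38.p6) by Entrez ID. Probe sets whose 5-array mean lay below the 25th percentile (4.22) were left out, and the brightest stood for a gene. The groups were compared in R 4.3.3 with limma 3.58.1 (lmFit, eBayes, two-sided, no variance trend), with Benjamini-Hochberg adjustment; the fit was tested on simulated data. Exact permutations ran over 10 splits on the absolute difference of means. Precision is limited by the number of arrays, which leaves 3 residual degrees of freedom.

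The members and lists were chosen with earlier results of these data known. Named genes are the 10 members, Grhl2, up to 6 called genes of the keratin family and of each list by size (with fewer than 2 called, the 2 largest changes), and the 5 genes nearest in pattern to a called member, with predicted genes, clones, olfactory and vomeronasal receptors and small RNAs left out. Alternatives covered the filter, normalization, probe set, variance prior, array weights, replicate block, threshold and each array left out.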

Additional observations from a re-analysis of the deposited data

How the results depend on the processing

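The count of 1 keratin member called, which is also the count over all keratins, was 0 with no filter and 0 with the replicate number as a block, and ran from 0 to 1 when 1 array was left out. Over all keratins it was 3 with the filter at the 50th percentile, 3 at an adjusted p under 0.1 (Krt80, Krt4 and Krt87 each time) and 2 with a trended and robust prior. Over all genes the count moved from 956 to 418 with no filter, to 172 with the block, to between 67 and 493 with 1 array left out, to 1708 with the filter at the 50th percentile, to 1851 at an adjusted p under 0.1 and to 2034 with the trended prior. Krt80 stayed lower under all 13 alternative fits and was called in 7 of them. With the replicate number as a block its log2 fold change was −0.29 (limma adjusted p = 0.072). The numbers are not known to pair the arrays. The deviations of same-numbered arrays from their group means correlated at 0.057 and 0.019 across genes. With 2 controls these deviations mirror each other, so the correlations cannot decide whether the arrays were paired. With 1 array left out, the Krt8 minus Krt18 difference ran from −0.14 to −0.021 and that of Krt7 minus Krt19 from −0.16 to 0.064. The sign of 6 uncalled members turned when an array was left out, with log2 fold changes from −0.14 to 0.037 for Krt14, −0.038 to 0.059 for Krt15, −0.094 to 0.036 for Krt17, −0.028 to 0.0069 for Krt18, −0.11 to 0.058 for Krt19 and −0.067 to 0.016 for Krt20. Without turning sign, the range was −0.10 to −0.042 for Krt7, −0.14 to −0.049 for Krt8, −0.24 to −0.095 for Krt23, −0.33 to −0.15 for Dst and −0.34 to −0.12 for Vim. The lone control array is then assumed to vary like the others. Centring each array on its median moved the median of all genes by 0.005. Dim members at 4.33 to 5.05 have no detection call, which limits what their values show.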
